A study of Mus musculus with 2 samples.

Results

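Neuropeptides are the small secreted peptides by which pulmonary neuroendocrine cells, and the small cell lung cancer (SCLC) tumors that resemble them, signal to their surroundings. The 10 neuropeptide genes described here are Grp, Nmb, Cartpt, Npy, Gal, Nmu, Vip, Tac1, Sst and Penk, chosen by name out of 27998 genes in the count tables, and all 10 were found there by symbol. They were measured by single-cell RNA-seq on the 10x Chromium platform in 2 mouse tumors, TKO1 and TKO2, with 1 library per tumor and 1 tumor from each of 2 mice. Both mice carried the same triple knockout, Rb-/-; Trp53-/-; Rbl2-/-, with a Rosa26 membrane-Tomato/membrane-GFP reporter, on a mixed C57BL/6, 129/SVJ and 129/SvOla background. Tumors were started with Adeno-CMV-cre and taken 7 months later, at an age of 8-9 months. The CMV promoter drives Cre in any infected lung cell, so the cell in which a tumor began is not fixed, and no tumor without the deletions was analysed here. The question here is which neuropeptides the tumor cells of each mouse expressed, in how many cells, and whether in the same cells.

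A neuropeptide is made as a larger precursor, packed into dense-core granules, cut there by prohormone convertases and often amidated before release. Gastrin-releasing peptide, from Grp, and neuromedin B, from Nmb, are the mammalian bombesin-like peptides, and Grp is a long-known product of pulmonary neuroendocrine cells and a growth factor of SCLC. Cartpt encodes the CART peptide, Gal encodes galanin, Nmu encodes neuromedin U and Vip encodes vasoactive intestinal peptide. Npy encodes neuropeptide Y, Tac1 encodes substance P and neurokinin A, Sst encodes somatostatin, and Penk encodes the enkephalins.

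A cell barcode was retained when more than 500 genes were detected in it, which left 3193 of 4514 barcodes in TKO1 and 3568 of 3816 in TKO2. The libraries held 5285038 and 8291430 unique molecular identifiers (UMIs, each a tagged RNA molecule) in all. Each tumor was clustered by itself without the 10 genes, and 2490 cells of TKO1 and 3382 cells of TKO2 were called neuroendocrine-like from at least 3 neuroendocrine markers and no other type. The 16 neuroendocrine markers were all detected in these cells, and their summed level was 23624 CPM (UMIs of the genes scaled to the total UMIs of those cells) in TKO1 and 2173 CPM in TKO2. Calca, 1 of these markers, made up most of the TKO1 sum, at 17089 CPM there and 18.04 CPM in TKO2. The 12 macrophage markers, of which 2 were at 0 in TKO2, summed to 43.1 and 13.9 CPM in the same cells, against 41325 and 36748 CPM in the 98 and 121 macrophage-like cells. A cluster of 496 cells of TKO1, which met 3 ciliated cell markers as well as 15 neuroendocrine markers, was held out, as were 65 cells of TKO2 with club cell and neuroendocrine markers. TKO1 also held 109 club-like cells. The libraries shared 22 barcodes, 11 of them among retained cells. Rb1, Trp53 and Rbl2 transcripts were counted in both tumors, at 77.6, 52.5 and 9.66 CPM in TKO1 and 15.2, 63.0 and 1.80 CPM in TKO2, which does not test the deletions, because reads from transcript ends can lie outside a deleted part.

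With 1 library per tumor there is no replicate, so no test between the tumors was possible and no p-value is given. All intervals below are 95% intervals and cover counting error only, since differences between mice or between library preparations cannot be told apart from the difference between tumors.

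Grp was far higher in TKO2 than in TKO1. It lies on chromosome 18 (GRCm38) from 65872820 to 65886596 where an antisense gene overlaps it, and 19 of its UMIs came from the neuroendocrine-like cells of TKO1 and 746 from those of TKO2. As a level this was 5.25 CPM (3.16 to 8.19) in TKO1 and 96.1 CPM (89.3 to 103) in TKO2. The level was 18.3-fold higher in TKO2, a log2 ratio of TKO1 to TKO2 of -4.20 (-4.94 to -3.54), and the intervals of the levels did not overlap.

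Nmb, the other bombesin-like peptide, went the opposite way. Its gene is on chromosome 7 from 80902227 to 80905076, where it overlaps Sec11a on the same strand, so its count is less certain. How reads from the shared part were counted was not tested. Nmb had 38 UMIs in TKO1 and 13 in TKO2, or 10.5 CPM (7.42 to 14.4) against 1.68 CPM (0.892 to 2.86). This was a log2 ratio of 2.65 (1.71 to 3.68), higher in TKO1. The tumor with the higher Grp level was thus the tumor with the lower Nmb level. Of the 13 Nmb UMIs of TKO2, 6 came from 150 of its cells, cluster 8 described below, at 11.7 CPM (4.28 to 25.4). That cluster was singled out after its values were seen.

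Cartpt was detected in both tumors. Its gene is on chromosome 13 from 99898489 to 99901091, and it had 97 UMIs in TKO1 and 410 in TKO2. The levels were 26.8 CPM (21.7 to 32.7) in TKO1 and 52.8 CPM (47.8 to 58.2) in TKO2. The log2 ratio was -0.98 (-1.31 to -0.66), higher in TKO2. Most of the TKO2 UMIs, 283 of 410, came from 309 of its cells, described below.

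Galanin (chromosome 19, 3409915 to 3414544) was a gene of TKO1, at a much lower count. Gal had 12 UMIs in TKO1 and 2 in TKO2, or 3.31 CPM (1.71 to 5.79) against 0.258 CPM (0.0312 to 0.931), with a log2 ratio of 3.68 (1.52 to 6.89). Among all genes with at least 10 UMIs over both tumors, 14.0% were at least 4-fold higher in TKO1 and 4.63% at least 4-fold higher in TKO2. Of the 10 members, 4 reached 10 UMIs, and of these Nmb and Gal were at least 4-fold higher in TKO1 and Grp in TKO2. The median log2 ratio of all genes was 0.37, and relative to it the log2 ratios were -4.57 for Grp, -1.35 for Cartpt, 2.28 for Nmb and 3.31 for Gal.

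The remaining 6 members were at or close to 0 in the neuroendocrine-like cells. Vip (chromosome 10, 5639218 to 5647617) had 6 UMIs in TKO2, all from 3 cells, and 0 in TKO1, where the interval of 0 UMIs reaches 1.02 CPM. Npy (chromosome 6, 49822710 to 49829507) and Nmu (chromosome 5, 76333495 to 76363788) each had 2 UMIs in TKO1 and 0 in TKO2. Tac1 (chromosome 6, 7554879 to 7565834), Sst (chromosome 16, 23889573 to 23890958) and Penk (chromosome 4, 4133531 to 4138819) had 0 UMIs in both, with intervals up to 1.02 CPM in TKO1 and 0.475 CPM in TKO2. No ratio is given for these, since the counts were at or under the limit of 3 UMIs in at least one tumor and no more than 6 in the other.

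**Figure D1:**
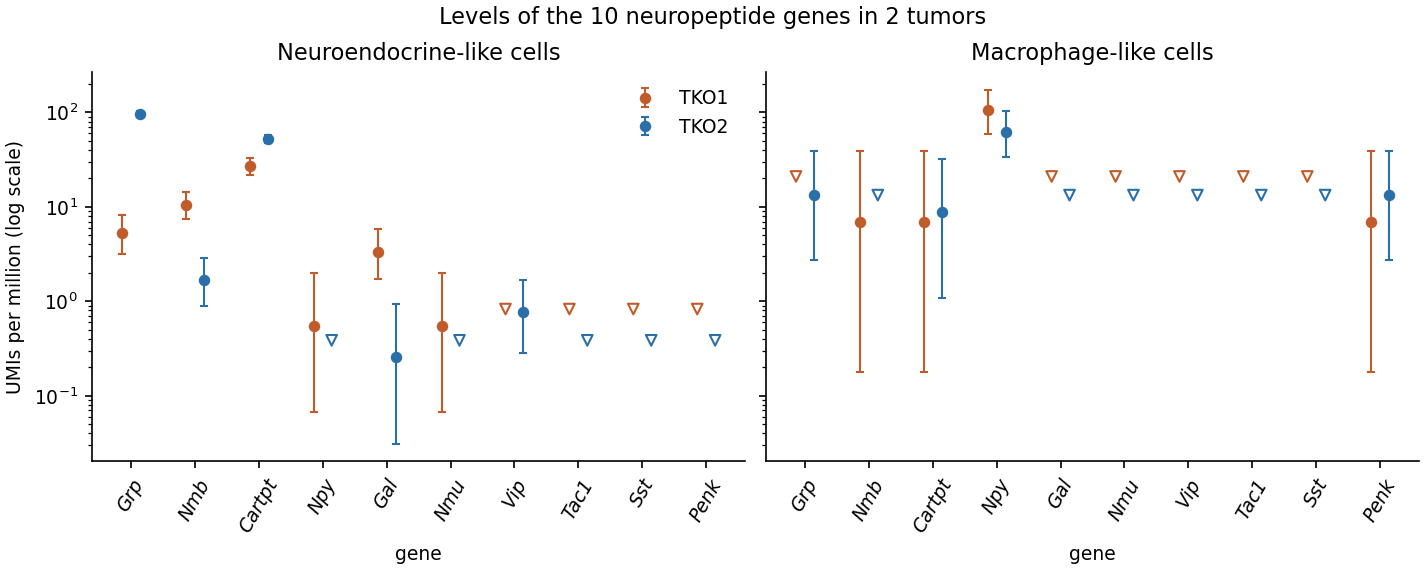
Levels of the 10 genes in neuroendocrine-like cells (left) and macrophage-like cells (right), in CPM on a log scale, with 95% Poisson intervals. Filled points are TKO1 (orange) and TKO2 (blue), and an open triangle marks the limit of 3 UMIs for a gene with 0 UMIs. Grp stands at 5.25 CPM in TKO1 and 96.1 in TKO2, and Npy is at 105 and 62.1 CPM in the macrophage-like cells.

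Npy stood apart, because its UMIs came from macrophage-like cells in both tumors. Of 17 Npy UMIs in the retained cells of TKO1, 15 were in macrophage-like cells, and of 14 in TKO2, 14 were. Its level in macrophage-like cells was 105 CPM (58.7 to 173) in TKO1, from 13 of 98 cells, and 62.1 CPM (34.0 to 104) in TKO2, from 6 of 121 cells. These intervals overlap. In neuroendocrine-like cells of TKO1 the Npy level was 0.526% of that in macrophage-like cells, a share that ranged from 0.0730% to 0.456% over 10 macrophage markers. Penk was seen in macrophage-like cells and not in neuroendocrine-like cells, with 1 UMI in TKO1 and 3 UMIs in TKO2. The macrophage-like clusters also held T or natural killer cell markers, summing to 874 CPM in TKO1 and 2419 in TKO2. Neutrophil markers summed to 867 and 186 CPM there, and B cell markers to 69.9 and 169. Which of these cells carried Npy or Penk was not resolved.

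Where a promoter sequence was available, it was searched for the cyclic AMP response element, TGACGTCA, which is the classical regulatory element of the somatostatin gene. RefSeq promoters of GRCm38.p6 were matched for 8 of 10 members, and the 250 bases before the annotated start were read. The element in exactly these letters, which read the same on both strands, was present in Cartpt and Sst. It was absent in this form from Nmb, Npy, Gal, Nmu, Vip and Tac1, while 1.55% of 32817 promoters hold it. Forms with other letters were not searched. The E-box CAGCTG, also the same on both strands, was in none of the 8 and in 13.0% of the 32817. The stretches around the element are shown because these members, with the same letters upstream, were at different levels. Both are on the minus strand, 5′ to 3′, with the element in capitals, at chr13:99900777-99900806 for Cartpt and chr16:23890874-23890903 for Sst. The element begins 112 bases before the Cartpt start and 48 bases before the Sst start, in a part that GENCODE M21 counts as first exon of a longer transcript.
Cartpt: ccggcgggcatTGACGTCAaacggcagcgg
Sst: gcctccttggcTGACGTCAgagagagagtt
Cartpt was counted 97 times in TKO1 and 410 times in TKO2 among neuroendocrine-like cells, and Sst 0 times in either. A match describes the letters of the sequence and is not a measurement of binding.

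Next, the share of tumor cells with a member's UMI was compared at equal depth, since the median neuroendocrine-like cell held 1242 UMIs in TKO1 and 1983 in TKO2. Each cell was thinned at random to 1000 UMIs, which left 1811 cells of TKO1 and 3020 of TKO2 and dropped 679 and 362 shallower cells. At this depth, 9 cells of TKO1 held a Grp UMI, 0.497% (0.227 to 0.941), against 276 cells of TKO2, 9.14% (8.13 to 10.2). Without thinning the shares were 0.683% and 16.4%. Grp was thus seen in few cells even of the tumor in which it was higher.

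Cartpt was held by 1.99% (1.40 to 2.74) of the thinned cells of TKO1 and 2.81% (2.25 to 3.47) of those of TKO2, and these intervals overlap. At 2000 UMIs per cell, which keeps only the deeper cells, the shares were 4.66% in TKO1 and 3.30% in TKO2. This is the opposite order, but no intervals were made at that depth, so the order is not settled. Without thinning the Cartpt shares were 2.45% and 4.41%. Nmb was held by 0.883% (0.506 to 1.43) of cells in TKO1 and 0.0993% (0.0205 to 0.290) in TKO2. Gal was held by 8 cells of TKO1, or 0.442% (0.191 to 0.869), and by 1 cell of TKO2. Each member was therefore absent from the counts of most tumor cells at 1000 UMIs, which at this depth does not show that the RNA itself was absent.

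Free RNA in the droplets can give a cell UMIs of a gene it does not express, so the macrophage-like cells were read as a background. In TKO2, 0 of 112 thinned macrophage-like cells held Grp or Cartpt, with an interval up to 3.24%, and their median depth before thinning was 1639 UMIs. In TKO1, 0 of 82 held Grp, Nmb or Cartpt, with an interval up to 4.40%, at a median of 1314 UMIs, and 0 of 94 club-like cells held them. The Grp share of TKO2 was above the upper limit of its tumor. The Cartpt share of TKO2 and the shares of Grp, Nmb and Cartpt in TKO1 were below theirs. Over all neuroendocrine-like cells, these cannot be separated from background by shares alone. In clusters 6 and 8 of TKO2, picked after their values were seen, Cartpt shares were 17.0% (11.2 to 24.3) and 13.2% (8.13 to 19.8), above 3.24%. Before thinning, the Grp level in macrophage-like cells of TKO2 was 13.9% of that in its neuroendocrine-like cells, and the Cartpt level was 16.8%. Over 6 neuroendocrine markers with at least 100 CPM in TKO2, this percentage had a median of 29.7% and ranged from 17.4% to 40.2%. In TKO1 it was 26.1% for Cartpt and 66.6% for Nmb, each from 1 UMI, and 20.1% as the median of 15 markers.

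**Figure D2:**
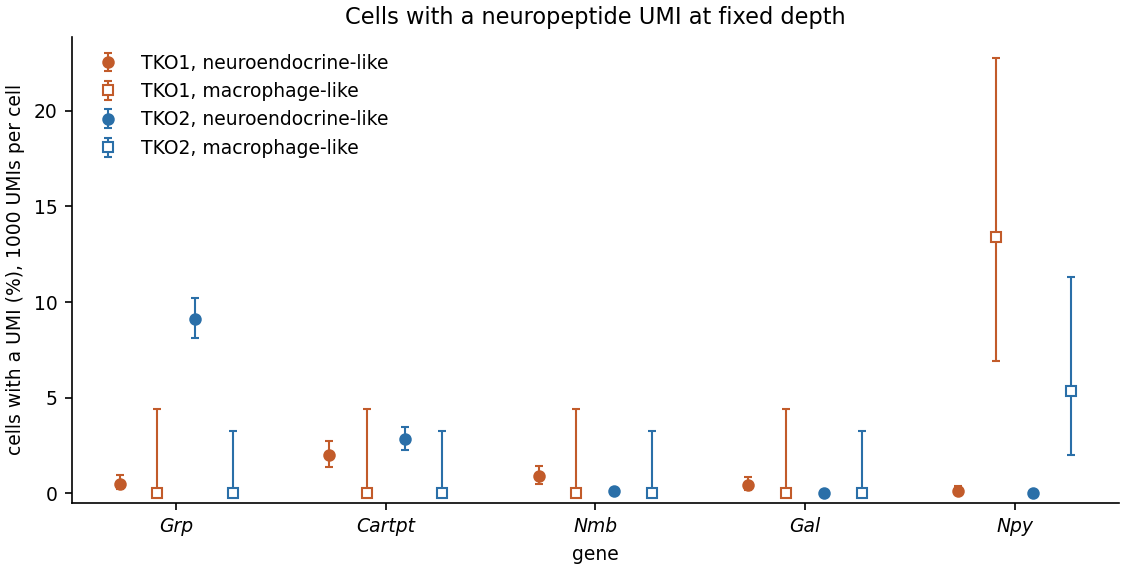
Percent of cells with at least 1 UMI of Grp, Cartpt, Nmb, Gal or Npy at an equal depth of 1000 UMIs in every cell, with exact 95% binomial intervals. Circles are neuroendocrine-like cells, open squares are macrophage-like cells, and colors mark the tumor. Grp is at 9.14% in TKO2 and 0.497% in TKO1, while Npy is at 13.4% and 5.36% of the macrophage-like cells of TKO1 and TKO2.

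Grp and Cartpt were spread over the cells of TKO2 in different ways. Among thinned cells of TKO2, 242 held 1 Grp UMI, 23 held 2 and 11 held 3 or more, with at most 4 in a cell. For Cartpt, 56 cells held 1 UMI, 9 held 2 and 20 held 3 or more, with up to 17 in a cell. The Fano factor, the variance of UMIs per cell divided by the mean, was 1.26 for Grp and 5.05 for Cartpt. Over the 9178 genes of TKO2 whose mean reached 0.005 UMIs in a thinned cell, the median Fano factor was 1.08 and the 95th percentile 1.28. Cartpt was in place 7 from the top of these genes and Grp in place 528. A Cartpt-positive cell held 2.20 UMIs on average, against 1.17 for a Grp-positive cell, so that few cells carried much of the Cartpt RNA.

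In TKO1 the Fano factor of Cartpt was 1.49, with at most 4 UMIs in a thinned cell, and that of Nmb was 1.41. The median over 10200 genes was 1.14 and the 95th percentile 1.46. Cells with several Cartpt UMIs were thus rarer in TKO1, where 2 cells held 3 or more. The unthinned maximum was 8 Cartpt UMIs in a cell of TKO1 and 25 in a cell of TKO2.

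**Figure D3:**
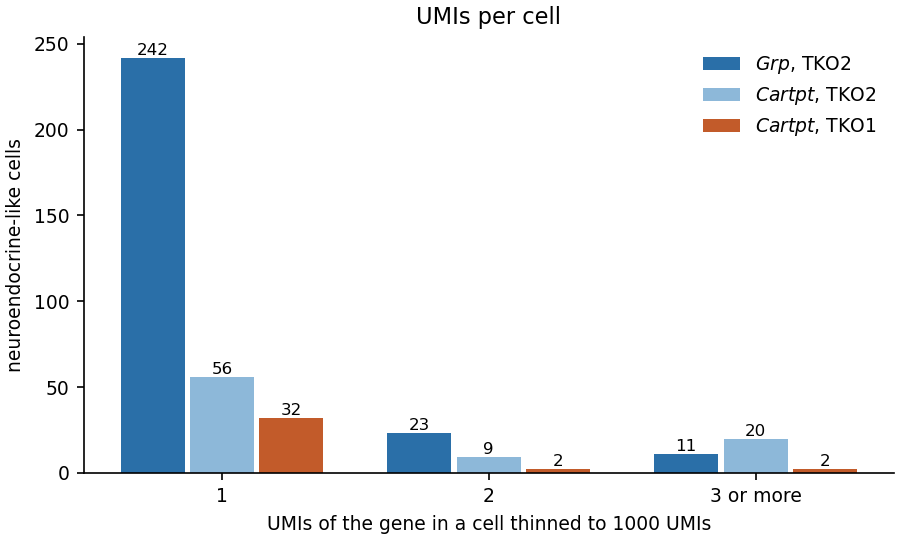
Number of neuroendocrine-like cells with 1, 2, or 3 or more UMIs of the gene, after thinning to 1000 UMIs, for Grp and Cartpt in TKO2 and Cartpt in TKO1. Cells with 0 UMIs are left out. Grp cells of TKO2 mostly held 1 UMI (242 cells), while 20 Cartpt cells of TKO2 held 3 or more.

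The clusters of a tumor, found without the 10 genes, show where these cells lay. A cluster is named here by its number in its own tumor and its leading genes, and differences between clusters of a library are given as a description. In TKO2, Cartpt was concentrated in cluster 6, led by Lect1, Cartpt and Spp1, and cluster 8, led by Speer4d, Gm21149 and Gm21083, which include members of a multigene family whose counts are uncertain. The median cell of cluster 8 held 2883 UMIs and that of cluster 6 held 1890, against 1983 over all neuroendocrine-like cells. Cartpt itself ranks among the leading genes of cluster 6 although it was not used to form it. Its level was 466 CPM (400 to 540) in cluster 6 and 204 CPM (167 to 247) in cluster 8. In the other 7 neuroendocrine-like clusters of TKO2 it ran from 8.83 CPM (4.41 to 15.8) to 37.3 CPM (20.9 to 61.6).

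Clusters 6 and 8 together held 309 of 3382 neuroendocrine-like cells and 283 of 410 Cartpt UMIs. In the other 3073 neuroendocrine-like cells of TKO2, Cartpt was at 18.5 CPM (15.4 to 22.0). All neuroendocrine-like cells of TKO1, its own Cartpt-high clusters included, were at 26.8 CPM (21.7 to 32.7). Cartpt-high clusters were left out of TKO2 only, while clusters 6 and 4 of TKO1, at 80.3 and 55.1 CPM, stayed in. These levels are thus of unlike sets and do not order the tumors. In TKO2, the share of thinned cells with a Cartpt UMI was 17.0% (11.2 to 24.3) in cluster 6 and 13.2% (8.13 to 19.8) in cluster 8. Genes that lead these clusters describe them and are no finding, since they helped to form them. Osteopontin (Spp1), a secreted phosphoprotein, was at 4003 CPM in these 309 cells and 14.7 in the other 3073 neuroendocrine-like cells. The long noncoding RNA Meg3 was at 142 and 2.77 CPM in the same sets. Grp, by contrast, was at 98.2 CPM (78.7 to 121) in the 309 cells and 95.9 CPM (88.7 to 103) in the other cells. Clusters high in Cartpt were therefore neither high nor low in Grp. Both clusters and these genes were singled out after their values were seen.

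Grp in TKO2 had its own order of clusters. It was highest in cluster 2, led by Vwf, Bik and Gm15915, at 172 CPM (146 to 201), in cluster 7, led by the mitotic genes Cdkn3, Cenpf and Nusap1, at 162 (125 to 206), in cluster 3 at 142 (122 to 165) and in cluster 0 at 133 (112 to 157). These 4 clusters had overlapping intervals. Cluster 6 was at 110 (79.3 to 149) and cluster 8 at 89.3 (65.4 to 119). The lowest were cluster 1, led by Gamt, Cdkn1c and Mfap2, at 48.4 (35.8 to 64.0), cluster 5, led by Map2k6, Rrm2 and Inip, at 34.1 (23.0 to 48.6), and cluster 4, led by the mitotic genes Ccnb1 and Plk1, at 28.3 (20.1 to 38.9). The mitotic clusters 7 and 4 were thus at opposite ends.

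The share of thinned cells with Grp was highest in cluster 7, at 15.03% (9.77 to 21.7), and cluster 2, at 14.8% (11.6 to 18.5), whose intervals overlap. It was lowest in cluster 5, at 2.54% (1.17 to 4.76), and cluster 4, at 3.49% (1.92 to 5.79), which overlap as well. Clusters 1, 4 and 5 together held 1347 cells at a Grp level of 36.2 CPM (29.9 to 43.4), against 139 CPM (128 to 150) in the other 2035 cells. Mycn, an oncogenic transcription factor, was at 3657 CPM in the former and 2324 CPM in the latter. These sets were made after the Grp values were seen.

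In TKO1, 10 of the 19 Grp UMIs lay in cluster 6, led by the neurofilament genes Nefm and Nefl with Degs2, where the level was 25.9 CPM (12.4 to 47.6). Cartpt was also highest there, at 80.3 CPM (54.6 to 114), followed by the mitotic cluster 4, led by Plk1, Ska1 and Ube2c, at 55.1 CPM (37.4 to 78.1). Clusters 3, 0, 7, 2 and 5 of TKO1 had Cartpt levels from 27.98 down to 6.40 CPM. Nmb was at 21.3 CPM (11.01 to 37.2) in cluster 4 and between 5.18 and 12.9 in the other neuroendocrine-like clusters, with overlapping intervals. The 496 held-out cells of TKO1 had 0 Grp UMIs, 7 Nmb UMIs and 6 Cartpt UMIs, which are an upper limit of 6.16 CPM for Grp and levels of 11.7 and 10.03 CPM for Nmb and Cartpt.

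**Figure D4:**
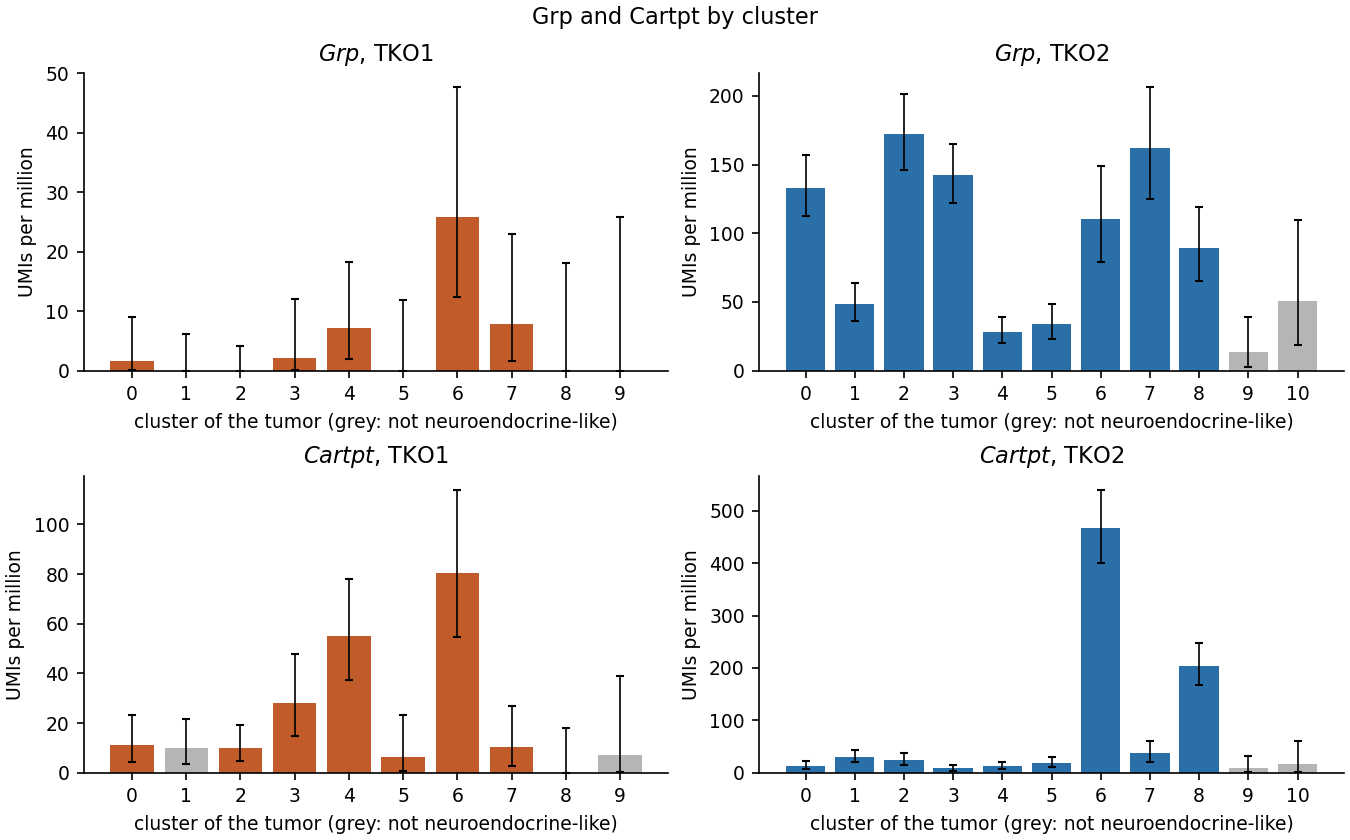
Level of Grp (top) and Cartpt (bottom) in each cluster of TKO1 (left) and TKO2 (right), in CPM with 95% Poisson intervals, on axes that differ between panels. Grey bars are macrophage-like, club-like or held-out clusters. Cartpt of TKO2 reaches 466 CPM in cluster 6 and 204 in cluster 8, and Grp of TKO2 runs from 28.3 CPM in cluster 4 to 172 in cluster 2.

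Co-detection was then counted in the thinned cells. In TKO2, 10 cells held both Grp and Cartpt UMIs, with a counting interval of 4.80 to 18.4 cells. If the genes were detected independently, the product of their shares gives 7.77 cells, and 8.32 cells when the product is taken within each cluster and summed. The ratio of observed to product was 1.29, and both products lay inside the counting interval. Pearson's r of log2(UMIs + 1) over the 3020 cells was 0.03. Without thinning, 32 cells of 3382 held both, against a product of 24.5.

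No other pair of members reached 5 cells by its product, so no ratio is given for the rest. In TKO1, 0 cells held both Grp and Cartpt, with a product of 0.179 cells, and 1 cell held both Grp and Nmb. Of the 3 thinned cells of TKO2 with a Vip UMI, 2 also held Cartpt and 1 also held Grp. These few cells were singled out after their values were seen. In all, 70 of 1811 thinned cells of TKO1 held UMIs of 1 member and 1 cell held 2 members. In TKO2, 341 of 3020 cells held 1 member, 12 held 2 and 1 held 3, so that 88.3% held none.

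Cells with and without a UMI of a regulator were compared in the same thinned cells. Only some of the pairs of a member and a regulator are described, and no rule set beforehand chose them. In TKO2, Grp was held by 7.87% (6.82 to 9.04) of the 2350 cells with a Mycn UMI and 13.6% (11.1 to 16.4) of the 670 cells without. In all, 185 cells had both Grp and Mycn, with a counting interval of 159 to 214 cells. The product of the shares was 215 cells, and 201 cells with the clusters held fixed. Only 276 cells held Grp, a cap that the counting interval leaves out, so that interval is too wide to judge the products. The count was below both products and nearer to the one with the clusters held fixed. Whether the clusters account for the difference was not tested.

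In TKO1, Cartpt was held by 6.98% (3.96 to 11.2) of the 215 cells with a UMI of Mycl, a MYC family gene often active in SCLC, and 1.32% (0.816 to 2.00) of the cells without. With clusters held fixed, 15 cells held both against a product of 10.01, with a counting interval of 8.40 to 24.7, and against 4.27 without the clusters. The order was not the same in TKO2. There, Cartpt was held by 0.917% (0.0232 to 5.01) of the 109 cells with Mycl and 2.89% (2.31 to 3.56) of the cells without, with overlapping intervals. Calca, which encodes the calcitonin gene-related peptide of pulmonary neuroendocrine cells, was detected in 1729 of 1811 thinned cells of TKO1. Cartpt was in 1.68% (1.13 to 2.40) of the 1729 cells with Calca and 8.54% (3.50 to 16.8) of the 82 without. These intervals do not overlap. Both genes were found in 29 cells, with a counting interval of 19.4 to 41.6. The products were 34.4 cells, and 31.7 cells with the clusters held fixed. Only 36 cells held Cartpt, fewer than the upper limit of 41.6, so this counting interval is too wide to judge the products. Over all thinned cells, the shares above show Cartpt less often in cells with Calca. Whether this holds within clusters was not tested.

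The genes most like Grp over the thinned cells of TKO2, by Pearson's r of log2(UMIs + 1) among 2942 genes, were the tetraspanin Cd9 (r = 0.14), Tmem158 (r = 0.12) and Vwf (r = 0.11), which encodes von Willebrand factor. All are weak, and in such sparse counts they are no more than an order. No other member reached 5% of thinned cells in a tumor, the share set for this comparison.

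The receptors, enzymes and granule proteins with which neuropeptides work were read in the same neuroendocrine-like cells. Of 25 receptor genes of the members in the tables, 7 reached 10 UMIs, 3 of them at least 4-fold higher in TKO1 and 1 in TKO2, beside 14.0% and 4.63% of all genes. Their median log2 ratio was 1.92 against 0.37 for all genes. The bombesin receptor genes Grpr, Nmbr and Brs3, named here outside the rule for naming genes, were at 0 UMIs in both tumors among neuroendocrine-like cells, with intervals up to 1.02 CPM in TKO1 and 0.475 CPM in TKO2. The receptor genes at least 4-fold higher in TKO1 were Npy1r, at 55.5 CPM against 1.93, Npy5r, at 4.69 against 0.258, and the somatostatin receptor gene Sstr5, at 19.1 against 0.515. Sstr2, another somatostatin receptor gene named outside the rule, had 53 UMIs in TKO1 and 196 in TKO2. Its log2 ratio was -0.79 (-1.25 to -0.34), higher in TKO2. Tacr1, which encodes the substance P receptor, had 28 UMIs in TKO2 and 0 in TKO1. With the 0 set at 3 UMIs, Tacr1 was 4.36-fold higher in TKO2. The interval of its log2 ratio ended at -1.73, short of 4-fold. The ligand genes of these receptors among the 10 members, Npy, Sst and Tac1, were at or near 0 in these cells. Ligand genes outside the members were not matched to the receptors.

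Genes for peptide processing were read next. Of 14 genes, 13 reached 10 UMIs, 3 of them at least 4-fold higher in TKO1 and 0 in TKO2, beside 14.0% and 4.63% of all genes. Their median log2 ratio was 1.36 against 0.37 for all genes. The prohormone convertase genes Pcsk1 and Pcsk2 were at 178 and 82.0 CPM in TKO1 and 8.38 and 7.99 in TKO2. Pam, which encodes the amidating enzyme that finishes gastrin-releasing peptide, was at 279 CPM in TKO1 and 18.2 in TKO2, 15.4-fold lower in TKO2. Cpe, the carboxypeptidase that trims the cut peptides, was at 423 and 281 CPM, and the convertase partners Pcsk1n and Scg5 at 617 and 424 CPM in TKO1 and 191 and 167 in TKO2. The tumor with the higher Grp level thus had the lower levels of these convertases and of Pam.

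Of 11 granule protein genes with 10 UMIs, 7 were at least 4-fold higher in TKO1 and 0 in TKO2, beside 14.0% and 4.63% of all genes, and their median log2 ratio was 2.53. Chromogranin A (Chga) was at 892 CPM in TKO1 and 96.5 in TKO2, chromogranin B (Chgb) at 278 and 48.2, and Resp18 at 1713 and 6.70. Scg2 was at 194 and 35.3 CPM, Scg3 at 123 and 65.5, and the granule membrane protein gene Ptprn at 102 and 3.09. Ptprn2 was at 46.7 and 7.86 CPM, and the vesicular monoamine transporter gene Slc18a1 at 59.1 and 1.42. Chga, Chgb, Resp18, Scg3, Scg5, Cpe and Pcsk1 are also among the markers that named the cells, each tumor against its own macrophage-like cells.

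Of 58 other neuropeptide and peptide hormone genes, 21 reached 10 UMIs, with 6 at least 4-fold higher in TKO1 and 4 in TKO2, beside 14.0% and 4.63% of all genes. Their median log2 ratio was 0.30, against 0.37 for all genes. Calca was at 17089 CPM in TKO1 and 18.04 in TKO2. Nppb, the gene of B-type natriuretic peptide, was at 16.0 and 0.129 CPM, and Calcb at 5.25 and 0.258. Edn3 and Pyy, which encode endothelin 3 and peptide YY, had 27 and 26 UMIs in TKO1 and 0 in TKO2. With the 0 set at 3 UMIs, they were 19.3-fold and 18.6-fold higher in TKO1. The intervals of their log2 ratios began at 3.87 and 3.81. Edn2 was at 3.87 and 0.515 CPM. Prok2, the gene of prokineticin 2, went the way of Grp, at 1.10 CPM in TKO1 and 13.9 in TKO2, and Cort, which encodes cortistatin, had 0 and 37 UMIs. With the 0 set at 3 UMIs, Cort was 5.76-fold higher in TKO2, and the interval of its log2 ratio ended at -2.15. Among neuroendocrine-like cells, Calca and Grp, both peptides of pulmonary neuroendocrine cells, were thus high in different tumors. The 65 held-out cells of TKO2 had 463 Calca UMIs, at 3895 CPM, against 140 UMIs in its neuroendocrine-like cells.

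Among the regulators, Nkx2-1 was at 499 CPM in TKO1 and 132 in TKO2, and Insm1 at 123 and 119. Mycl was at 231 and 33.8 CPM and Mycn at 13.0 and 2879. Neurod1, the factor of another SCLC subtype, had 0 UMIs in TKO1 and 95 in TKO2, at least 14.8-fold higher in TKO2. The tumor with more Grp was thus the tumor with more Mycn, while inside TKO2 the Grp-low clusters 1, 4 and 5 had more Mycn than the rest. With 2 tumors, no relation across tumors could be tested.

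**Figure D5:**
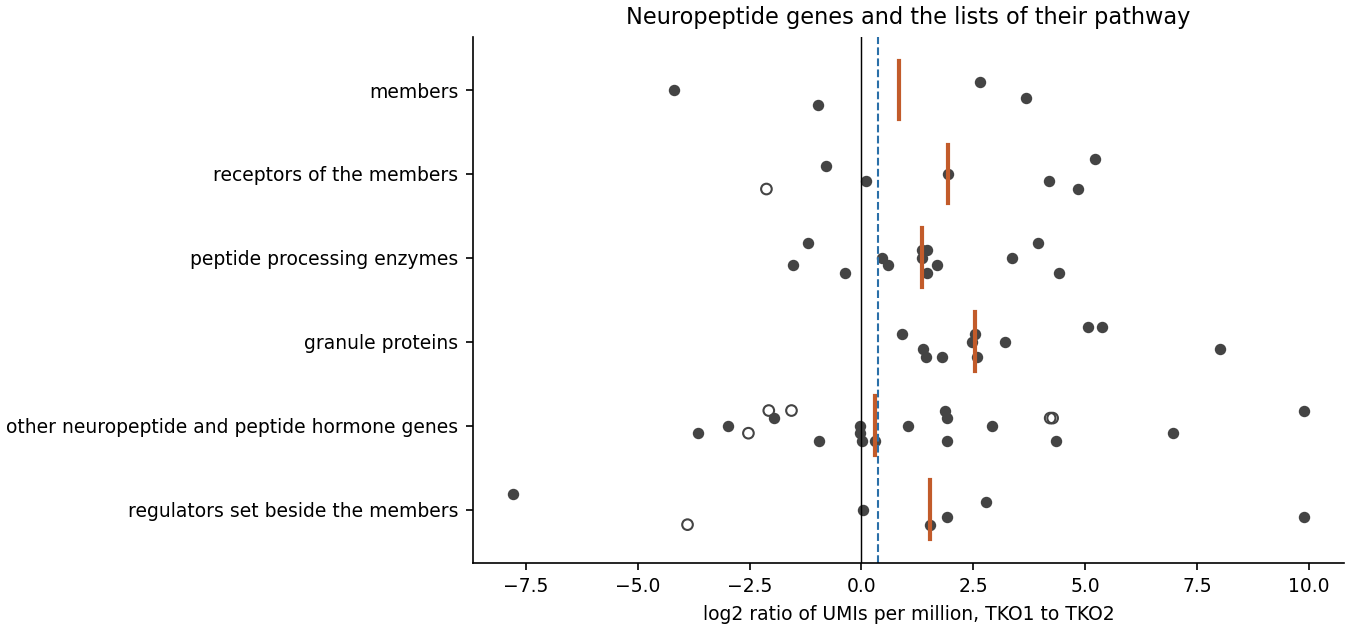
Log2 ratio of CPM, TKO1 to TKO2, in neuroendocrine-like cells for each gene with at least 10 UMIs, by list. Each dot is a gene, an open circle is a gene at 0 UMIs in a tumor and so a bound, orange bars are list medians, and the blue dashed line is the median of all genes, 0.37. Grp is at -4.20 among the members, and 7 of 11 granule protein genes lie at least 4-fold to the TKO1 side.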

How the data were processed

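The authors deposited UMI counts per gene and barcode, with no normalization. The submitters' processing notes name Cell Ranger, Seurat and mm10; versions are not given in the sources used here. The study's methods state a minimum of more than 500 detected genes, applied here, and a 10% cutoff on mitochondria-encoded transcripts, below which all retained barcodes lay (at most 2.92% in TKO1 and 7.60% in TKO2). Of 27998 identifiers, 27645 matched GENCODE M21. Barcodes with more than 500 detected genes were clustered per tumor with Seurat 5.3.0 (1000 variable genes, the 10 members left out, 10 principal components, resolution 0.8) in R 4.3.3. A class other than neuroendocrine needed 3 markers at least 4-fold above the other cells, and the neuroendocrine class 3 markers at least 2-fold above macrophage-like cells and no other class. Scrublet (scanpy 1.11.5) called 0 doublets in 3193 and 3568 cells, so none were removed.

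UMIs were summed per class and divided by the class total. Levels have Poisson intervals, log2 ratios exact conditional binomial intervals and shares Clopper-Pearson intervals, all from scipy 1.17.1. Genes at 0 were set to 3 UMIs. Thinning used seed 1. The edgeR 4.0.16 tests were not used, for lack of replicates. Functions were tested on simulated data.

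The members and lists were chosen with earlier results of these data known. Named from each list were genes with at least 100 CPM in a tumor or at least 4-fold apart, at most 8 by level, with all members and regulators, the 3 genes most like a member held by at least 5% of thinned cells, and the 3 leading genes of a described cluster. Values of 1 regulator are not reported here. Alternatives covered cells, depth, scaling and thresholds.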

Additional observations from a re-analysis of the deposited data

Results flagged for a closer look

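Barcodes with 500 or fewer detected genes entered no comparison above, and several members had more than 3 UMIs in them. In the 1321 such barcodes of TKO1 there were 13 UMIs of Cartpt, 10 of Npy, 6 of Nmb and 4 of Gal. In the 248 of TKO2 there were 14 UMIs of Grp and 5 of Cartpt. Grp in TKO2 was at 75.2 CPM (41.1 to 126) in these barcodes, an interval that holds its level in neuroendocrine-like cells. Npy in TKO1 was at 13.9 CPM (6.68 to 25.6) there, above its level in neuroendocrine-like cells and below that in macrophage-like cells.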

How the results depend on the processing

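No paired analysis was possible because each tumor is a single library, and for the same reason no replicate could be left out. No log2 ratio of a member changed sign under the alternatives: it ran from -4.60 to -3.68 for Grp, 2.24 to 3.38 for Nmb and 2.98 to 4.12 for Gal. That of Cartpt was -1.39 with edgeR's TMM factors, -1.35 with the median of all genes subtracted and -0.58 in cells with more than 1000 detected genes. Shares moved with depth by construction. At 500 UMIs they were 0.161% for Grp, 1.12% for Cartpt and 0.442% for Nmb in TKO1, and 4.97% for Grp and 1.80% for Cartpt in TKO2. At 2000 UMIs they were 1.33%, 4.66% and 2.22% for these genes in TKO1, and 14.2% for Grp and 3.30% for Cartpt in TKO2. The Cartpt share was thus higher in TKO1 at this depth, the opposite of the order at 1000 UMIs, but without intervals to set the tumors apart. Counting only cells with 2 or more UMIs gave 0.0552%, 0.221% and 0.110% in TKO1, and 1.13%, 0.960% and 0% in TKO2, for Grp, Cartpt and Nmb. With more than 1000 detected genes, Nmb was at 1.75% in TKO1, Grp at 7.62% and Cartpt at 1.96% in TKO2, and over all retained cells Cartpt was at 1.29% in TKO1; the cause was not tested. The ratio of cells with both Grp and Cartpt to the product ran from 0.894 to 1.75, and is not given at 500 UMIs, at 2 or more UMIs or above 1000 genes, where the product fell under 5 cells. A minimum of 50 UMIs left fewer genes: 0 receptor genes higher in TKO2, 2 and 1 other neuropeptide genes higher in TKO1 and TKO2, and 977 and 365 of all genes. A 2-fold threshold gave 8 processing genes higher in TKO1 and 2 in TKO2. For other neuropeptide genes the counts were 10 and 6, and for regulators 4 and 2. Beside these stood 3954 and 1534 of all 12830 genes with at least 10 UMIs. Of all genes past 4-fold, 75.2% were higher in TKO1, against 63.3% with TMM factors, 68.7% without mitochondria-encoded and ribosomal protein genes and 64.3% with the median subtracted. Clustering anew above 1000 detected genes could not be used, since it left 546 neuroendocrine-like cells in TKO1 and 0 in TKO2. The same gene minimum with the reported classes, and counting the held-out clusters as neuroendocrine-like, were chosen after seeing the data.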
